A study of Arabidopsis thaliana with 9 samples.

Results

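The genes of brassinosteroid synthesis and inactivation were followed in Arabidopsis thaliana seedlings of 3 genotypes with enlarged or normal leaves. The set holds 10 loci of the 20777 on the array, taken by their locus codes, and all 10 were measured. Of these, 9 encode enzymes of synthesis and 1, BAS1, encodes an enzyme of inactivation. The genotypes were 35S::GA20OX, 35S::JAW and wild type, all in the Col-0 ecotype, with 3 biological replicates of each on Affymetrix ATH1 arrays. GA20OX, or gibberellin 20-oxidase, helps to make the growth hormone gibberellin. The JAW locus encodes microRNA miR319a, whose targets are the messenger RNAs of 5 TCP transcription factors that limit cell division in leaves. In both lines the viral 35S promoter, which is active in most tissues, drives the transgene, and the number of independent transgenic lines behind each genotype is not given in the sources used here. RNA came from the vegetative part of seedlings at growth stage 1.03, grown in vitro on MS medium with 16 h of light at 22 °C. The series text names a GRF5 overexpressing line, a genotype that no label of the 9 samples carries.

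Brassinosteroids are plant steroid hormones that promote cell expansion and division in leaves and stems, and mutants that lack them are dwarfs with small, round leaves. They are made from the sterol campesterol, which DWF5 and DWF1 help to form, by the reductase DET2 and a group of cytochrome P450 enzymes: DWF4, CPD, ROT3, CYP90D1, BR6OX1 and BR6OX2. BAS1, another cytochrome P450, hydroxylates active brassinosteroids and so removes them. The hormone is perceived by the receptor kinase BRI1, and the transcription factors BZR1 and BES1 then repress several synthesis genes, DWF4 and CPD among them, while BAS1 transcripts are known to increase with the hormone.

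The values are log2 expression values made with RMA, which normalises arrays to a common distribution. Array medians lay between 6.35 and 6.41 and lower quartiles between 4.28 and 4.42, and 3 arrays per genotype limit the precision. GA20OX1, a gibberellin 20-oxidase gene, was 6.90 higher in 35S::GA20OX than in wild type on the log2 scale. In 35S::JAW it was 0.85 lower than in wild type (limma adjusted p = 0.000235). The 5 TCP target genes fell by 1.83 to 3.43 in 35S::JAW against wild type. Of 4 leaf markers 1 was measured, the carbonic anhydrase gene CA1, with 13.65 to 13.66 in 35S::GA20OX, 13.66 to 13.72 in 35S::JAW and 13.65 to 13.71 in wild type. The 6 measured root markers lay between 3.88 and 6.20 in 35S::GA20OX, between 4.14 and 6.15 in 35S::JAW and between 4.27 and 6.08 in wild type. The 5 flower markers reached at most 4.88, 4.47 and 4.58 in 35S::GA20OX, 35S::JAW and wild type, the 3 seed markers at most 4.38, 4.56 and 4.45, and no marker of leaf, root, flower or seed differed between genotypes at an adjusted p below 0.05 in limma. At an unadjusted limma p below 0.05 there was 1 marker in 35S::GA20OX against wild type, beside 10.5% of all loci. It was PRP3 (-0.31 ± 0.10), 1 of the 6 root markers. There were 0 in 35S::JAW against wild type, beside 20.7% of all loci. In 35S::JAW against 35S::GA20OX there was 1, beside 25.2% of all loci: SEP3 (-0.33 ± 0.12), 1 of the 5 flower markers.

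In 35S::GA20OX 1 of the brassinosteroid genes passed against wild type, and in 35S::JAW 5 did, in both directions. In limma, with p-values adjusted over all loci and a threshold of 0.05, 1 of the 10 genes, BAS1, fell in 35S::GA20OX against wild type. Of all loci 0.332% passed in that comparison, 0.164% higher and 0.168% lower. At an unadjusted limma p below 0.05 there were 6 of the 10 genes, beside 10.5% of all loci. In 35S::JAW 2 rose (ROT3 and DWF1) and 3 fell (BAS1, DWF4 and CYP90D1), so that 5 of 10 passed. Of all loci 8.32% did, 4.34% higher and 3.98% lower. At an unadjusted limma p below 0.05 there were 7 of the 10 in 35S::JAW, beside 20.7% of all loci. Between the lines, in 35S::JAW against 35S::GA20OX, 2 were higher (ROT3 and CPD) and 3 lower (BAS1, DWF4 and BR6OX1). Of all loci 13.2% passed there, 6.71% higher and 6.52% lower. Between the lines 6 of the 10 had an unadjusted limma p below 0.05, beside 25.2% of all loci. DET2, DWF5 and BR6OX2 passed in none of these comparisons. The median absolute log2 difference of the 10 genes was 0.19 in 35S::GA20OX, against 0.07 over all loci, and 0.37 in 35S::JAW, against 0.09 over all loci. Both comparisons with wild type use the same 3 wild-type arrays.

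**Figure D1:**
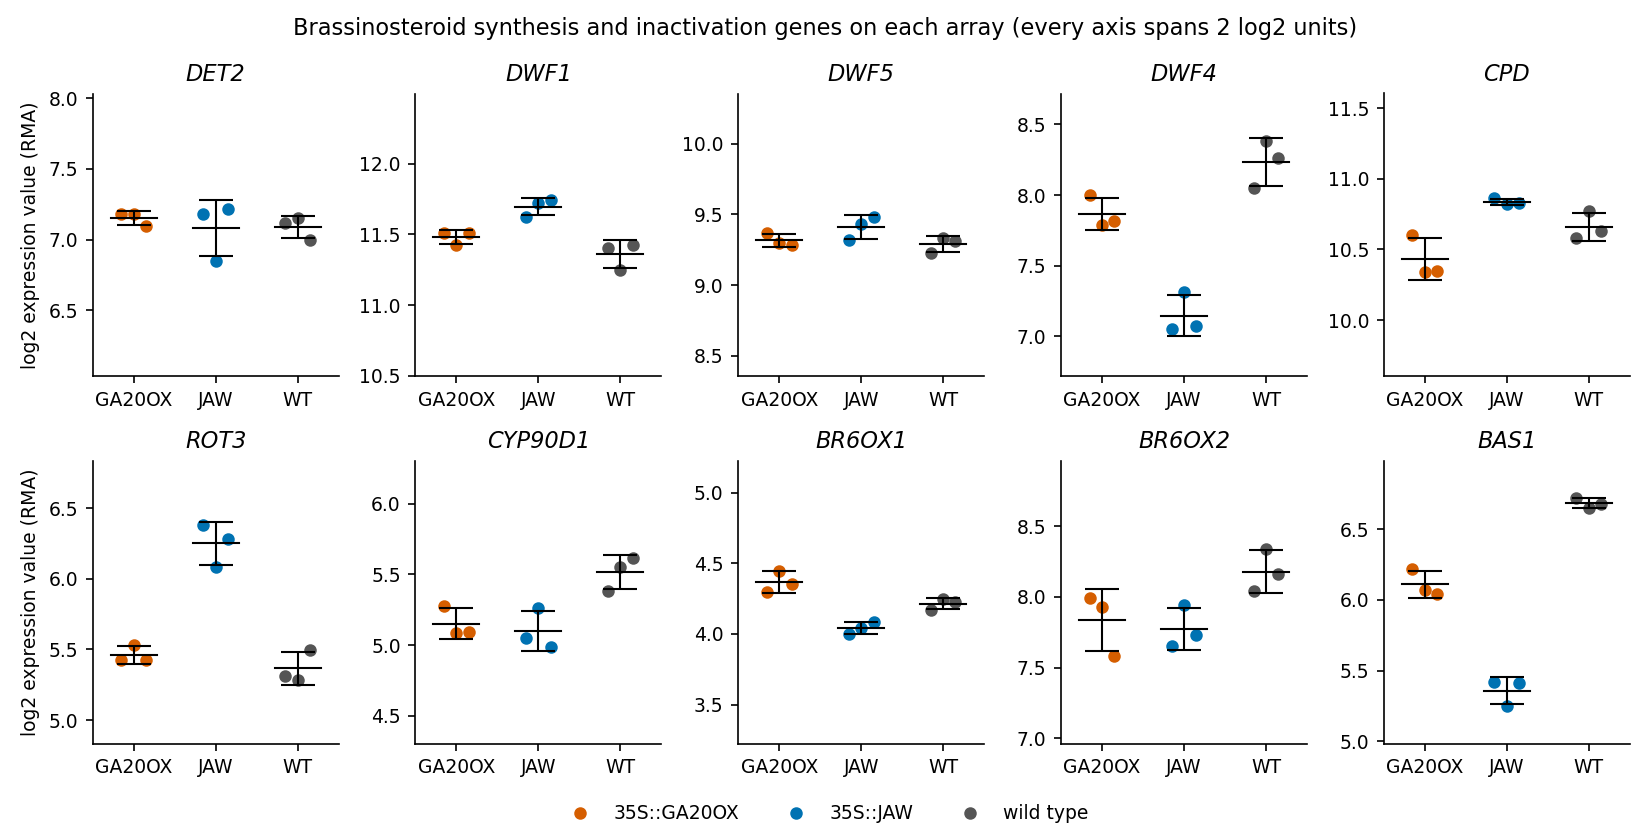
Log2 expression values (RMA, y axis) of the 10 brassinosteroid genes on each array, with 35S::GA20OX (orange), 35S::JAW (blue) and wild type (grey) from left to right, and lines for the mean and SD (n = 3). Every y axis spans the same number of log2 units, so steps can be compared between panels and levels cannot. The BAS1 values form 3 separate groups, lowest in 35S::JAW, and ROT3 stands apart in 35S::JAW alone.

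BAS1 (AT2G26710), the inactivation gene, was lower in both lines and lowest in 35S::JAW. Its log2 values were 6.22, 6.07 and 6.04 in 35S::GA20OX, 5.42, 5.25 and 5.41 in 35S::JAW, and 6.72, 6.65 and 6.68 in wild type. The 3 genotypes did not overlap, and every neighbouring pair in this order differed beyond its spread. The log2 difference from wild type was -0.57 ± 0.07 (SE, n = 3 per genotype) in 35S::GA20OX, a 1.49-fold decrease (limma adjusted p = 0.0101). In 35S::JAW it was -1.32 ± 0.07, a 2.5-fold decrease (limma adjusted p = 1.41e-06). The lines differed from each other by -0.75 ± 0.07 in 35S::JAW against 35S::GA20OX (limma adjusted p = 6.51e-05), which tests the difference between their 2 effects directly. Only 0.525% of all loci had a larger absolute difference in 35S::GA20OX, and 0.462% in 35S::JAW. Without wild type replicate 3 the 35S::GA20OX difference was still -0.57 but its limma adjusted p was 0.0537. In whole shoots, fewer cells that express a gene and less RNA in each cannot be told apart.

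DWF4 (AT3G50660) encodes the side-chain hydroxylase that is regarded as the rate-limiting enzyme of the pathway, and it fell in 35S::JAW. Its log2 values were 8.00, 7.79 and 7.82 in 35S::GA20OX, 7.05, 7.32 and 7.07 in 35S::JAW, and 8.05, 8.39 and 8.26 in wild type. All 35S::JAW arrays lay below all others, and the 35S::GA20OX arrays lay just below those of wild type. The decrease in 35S::JAW was 2.12-fold, a log2 difference of -1.09 ± 0.10 (SE; limma adjusted p = 7.98e-05). In 35S::GA20OX the difference of -0.37 ± 0.10 did not pass (limma adjusted p = 0.233), although its 95% confidence interval ran from -0.59 to -0.14. The direct comparison gave -0.72 ± 0.10 in 35S::JAW against 35S::GA20OX (limma adjusted p = 0.000928).

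The related P450 genes CPD, ROT3 and CYP90D1 differed in direction. CPD (AT5G05690), which acts on the steroid ring, had log2 values of 10.60, 10.34 and 10.35 in 35S::GA20OX, 10.86, 10.82 and 10.83 in 35S::JAW, and 10.58, 10.77 and 10.63 in wild type. Wild type lay between the lines, below every 35S::JAW array and overlapping with 35S::GA20OX. Neither line differed from it at the threshold, with log2 differences of -0.23 ± 0.08 in 35S::GA20OX (limma adjusted p = 0.362) and 0.18 ± 0.08 in 35S::JAW (limma adjusted p = 0.258). Between the lines the difference did pass, and CPD was 1.32-fold higher in 35S::JAW than in 35S::GA20OX, by 0.41 ± 0.08 (limma adjusted p = 0.00802). DWF4 and CPD thus had opposite signs in 35S::JAW against 35S::GA20OX, and both of these differences passed.

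ROT3 (AT4G36380) and CYP90D1 (AT3G13730) encode closely related hydroxylases with overlapping activity on the side chain, and ROT3 is known for its role in leaf length. ROT3 had log2 values of 5.42, 5.53 and 5.42 in 35S::GA20OX, 6.38, 6.08 and 6.28 in 35S::JAW, and 5.31, 5.28 and 5.50 in wild type. The 35S::JAW arrays were all above the other 6, while 35S::GA20OX and wild type overlapped. The rise in 35S::JAW was 1.85-fold, a log2 difference of 0.88 ± 0.09 (SE; limma adjusted p = 0.000121), and against 35S::GA20OX it was 0.79 ± 0.09 (limma adjusted p = 0.000177). In 35S::GA20OX the difference from wild type was 0.09, with a 95% confidence interval from -0.10 to 0.29.

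CYP90D1 had log2 values of 5.28, 5.09 and 5.09 in 35S::GA20OX, 5.05, 5.26 and 4.99 in 35S::JAW, and 5.38, 5.55 and 5.62 in wild type. Both lines lay below wild type on every array and overlapped with each other. It fell by 0.42 ± 0.09 in 35S::JAW (limma adjusted p = 0.0179). The difference in 35S::GA20OX was nearly as large, -0.37 ± 0.09, and did not pass (limma adjusted p = 0.182), and the lines themselves differed by -0.05, with a 95% confidence interval from -0.26 to 0.15. The 35S::JAW call was lost without 35S::JAW replicate 1, 35S::JAW replicate 3, wild type replicate 2 or wild type replicate 3, with limma adjusted p up to 0.0827. In 35S::JAW, ROT3 thus rose where CYP90D1 fell.

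BR6OX1 (AT5G38970) and BR6OX2 (AT3G30180) encode the oxidases of the last steps, and BR6OX2 also forms brassinolide, the most active brassinosteroid. BR6OX2 had log2 values of 7.99, 7.93 and 7.58 in 35S::GA20OX, 7.66, 7.94 and 7.73 in 35S::JAW, and 8.04, 8.34 and 8.16 in wild type. Every array of both lines was below all wild-type arrays, but the spread was wide, with an SD of 0.22 in 35S::GA20OX. The log2 differences from wild type were -0.34 ± 0.12 in 35S::GA20OX (limma adjusted p = 0.335) and -0.40 ± 0.12 in 35S::JAW (limma adjusted p = 0.0642). The 35S::JAW difference passed in 6 of the 15 alternative settings, with limma adjusted p from 0.0307 to 0.199 over all of them.

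BR6OX1 was dim, near the lower quartile of the arrays, with log2 values of 4.30, 4.45 and 4.35 in 35S::GA20OX, 4.0, 4.04 and 4.08 in 35S::JAW, and 4.17, 4.24 and 4.23 in wild type. The 3 genotypes did not overlap, with 35S::GA20OX highest, wild type in the middle and 35S::JAW lowest. Neither line passed against wild type, with log2 differences of 0.15 ± 0.06 in 35S::GA20OX (limma adjusted p = 0.442) and -0.17 ± 0.06 in 35S::JAW (limma adjusted p = 0.146). The line-to-line difference of -0.32 ± 0.06 in 35S::JAW against 35S::GA20OX passed (limma adjusted p = 0.00678).

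Of the early genes DWF1 alone passed against wild type, with a small rise. DWF1 (AT3G19820), the sterol side-chain reductase that yields campesterol, had log2 values of 11.51, 11.42 and 11.51 in 35S::GA20OX, 11.63, 11.72 and 11.74 in 35S::JAW, and 11.41, 11.25 and 11.43 in wild type. Its 35S::JAW arrays were above the other 6. It rose 1.26-fold in 35S::JAW, by 0.34 ± 0.07 on the log2 scale (limma adjusted p = 0.0126, and 0.0512 without 35S::JAW replicate 3). In 35S::GA20OX the difference was 0.12 ± 0.07 (limma adjusted p = 0.591), and between the lines it was 0.21 ± 0.07 (limma adjusted p = 0.0724).

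DWF5 (AT1G50430), a sterol ring reductase, lay between 9.28 and 9.37 in 35S::GA20OX, between 9.32 and 9.48 in 35S::JAW and between 9.23 and 9.33 in wild type. The genotypes overlapped, and the 95% confidence interval of the difference from wild type was -0.12 to 0.18 in 35S::GA20OX and -0.03 to 0.27 in 35S::JAW. DET2 (AT2G38050), the steroid reductase that commits campesterol derivatives to the pathway, lay between 7.09 and 7.18 in 35S::GA20OX, between 6.85 and 7.21 in 35S::JAW and between 7.0 and 7.15 in wild type. Here too the genotypes overlapped, the low 35S::JAW value came from replicate 2, and the intervals were -0.14 to 0.27 in 35S::GA20OX and -0.22 to 0.20 in 35S::JAW.

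**Figure D2:**
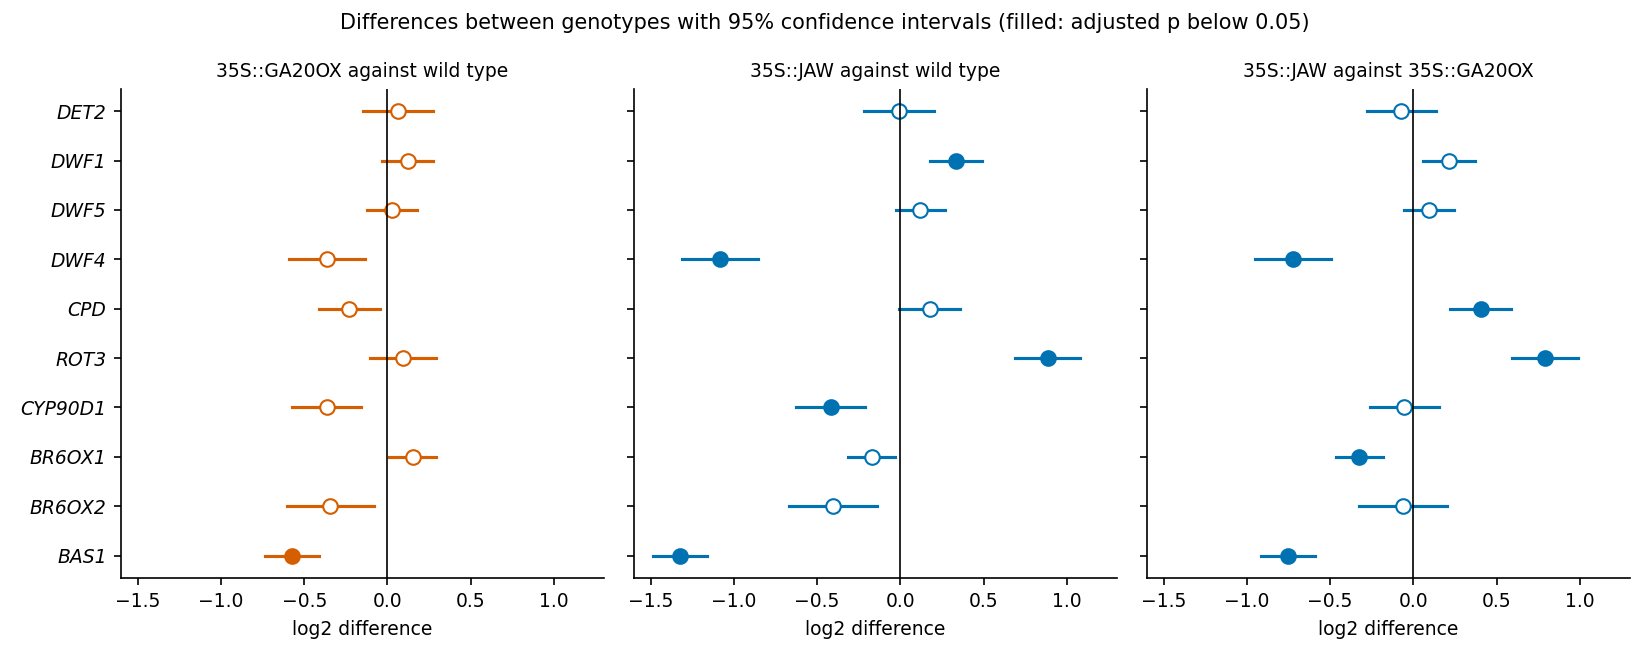
Log2 differences of the 10 brassinosteroid genes (x axis; points, with 95% confidence intervals as lines) in 35S::GA20OX against wild type, 35S::JAW against wild type and 35S::JAW against 35S::GA20OX. Filled points passed an adjusted p of 0.05 over all loci. In 35S::GA20OX the only filled point is BAS1 at -0.57, and in 35S::JAW the points run from -1.32 for BAS1 to 0.88 for ROT3.

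Within a genotype the arrays gave similar values: the SD of the 10 genes had a median of 0.10 and ran from 0.02 for CPD in 35S::JAW to 0.22 for BR6OX2 in 35S::GA20OX, and the median SD over all loci was 0.09. The arrays of 35S::GA20OX did not overlap with those of wild type for 5 of the 10 genes, with 1 higher and 4 lower. Over all loci this held for 16.8%, with 8.53% higher and 8.3% lower. The arrays of 35S::JAW and wild type did not overlap for 8 of 10, with 3 higher and 5 lower, and over all loci for 25.6%, with 14.2% higher and 11.4% lower. Between 35S::JAW and 35S::GA20OX it was 6 of 10, with 3 higher and 3 lower, and 30.2% of all loci, with 15.9% higher and 14.3% lower. The absolute difference from wild type was larger in 35S::JAW than in 35S::GA20OX for 8 of the 10 genes. The share of all loci for which this held was not counted. Over all loci the median absolute difference was also larger in 35S::JAW, 0.09 beside 0.07 in 35S::GA20OX. For 3 genes, CPD, BR6OX1 and DET2, the differences in the lines had opposite signs, and none of those 6 differences from wild type passed.

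**Figure D3:**
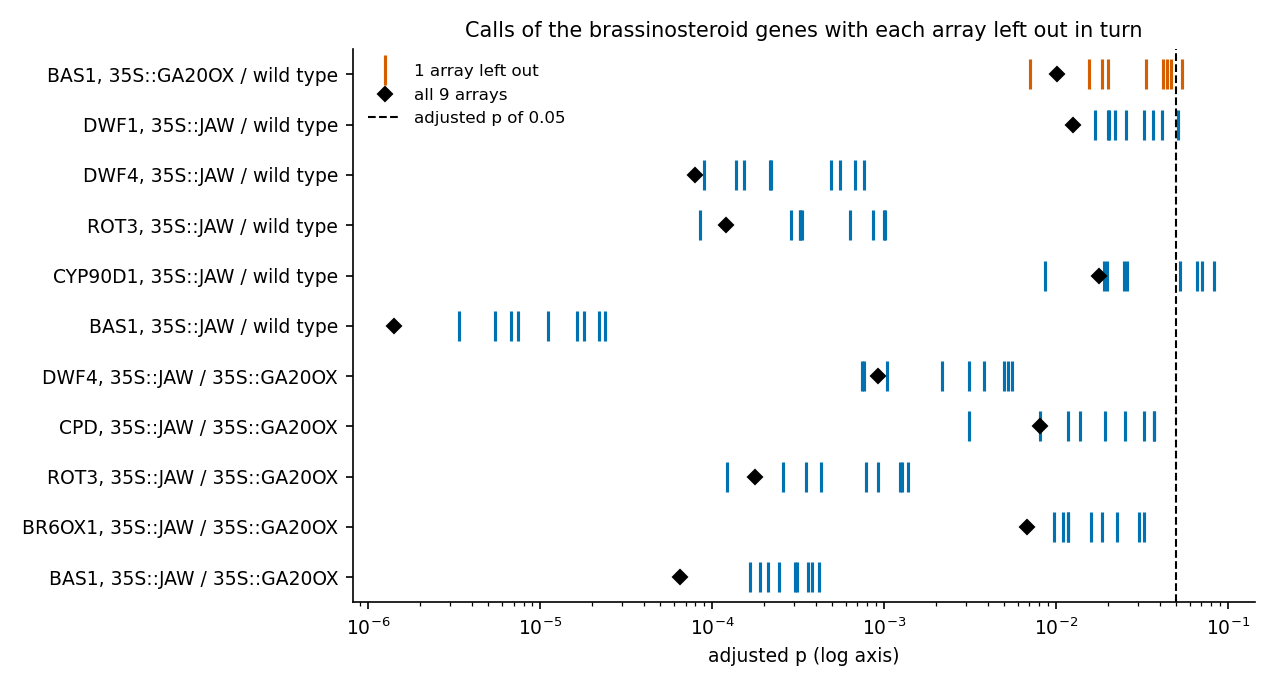
Adjusted p (x axis, log scale) of each call among the brassinosteroid genes with all 9 arrays (black diamonds) and with each array left out in turn (coloured ticks). The dashed line marks 0.05. Ticks of BAS1 in 35S::GA20OX, DWF1 in 35S::JAW and CYP90D1 in 35S::JAW cross the line, and the other 8 calls stayed below it in all 9 fits.

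The rest of the brassinosteroid pathway was read from 7 lists with 72 loci, of which 59 were measured. In 35S::GA20OX against wild type none of the 59 passed in limma, and at an unadjusted p below 0.05 there was 1 of 17 sterol synthesis genes, 2 of 13 perception genes and 3 of 9 induced genes, beside 10.5% of all loci. The other 4 lists had 0. The list medians lay between -0.02 and 0.06, beside 0.00 for all loci.

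In 35S::JAW against wild type none of the 17 sterol synthesis genes passed in limma, with differences from -0.32 to 0.25. At an unadjusted p below 0.05 there were 6 of the 17, beside 20.7% of all loci. The arrays of 35S::JAW and wild type did not overlap for 7 of the 17, beside 25.6% of all loci, and the median absolute difference was 0.12, beside 0.09 over all loci. None of 4 other inactivation genes passed (limma; 1 at an unadjusted p below 0.05). Of 13 perception genes 3 had an unadjusted limma p below 0.05, beside 20.7% of all loci. Of the 13, 1 rose, beside 4.34% of all loci: BKI1 (AT5G42750), an inhibitor of the receptor kinase BRI1, by 0.36 ± 0.10 (limma adjusted p = 0.0428). That call was lost in 7 of the 9 fits with 1 array left out, with limma adjusted p up to 0.156. It held only without 35S::GA20OX replicate 1 or replicate 2. In 35S::GA20OX the BKI1 difference from wild type was 0.30 ± 0.10 (limma adjusted p = 0.302). Between the lines it was 0.07 ± 0.10 (limma adjusted p = 0.746). BRI1 (AT4G39400) itself, named after its values were seen, had a log2 difference of -0.03 ± 0.06 in 35S::JAW (limma adjusted p = 0.813) and 0.08 ± 0.06 in 35S::GA20OX (limma adjusted p = 0.725).

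Further down the pathway BIN2 (AT4G18710), the kinase that restrains BZR1 and BES1, had log2 values of 9.73, 9.46 and 9.51 in 35S::GA20OX, 9.99, 10.13 and 9.96 in 35S::JAW, and 9.52, 9.64 and 9.56 in wild type. The 35S::JAW arrays were above the others. Of 5 signal relay genes 1 rose, beside 4.34% of all loci: BIN2, by 0.46 ± 0.08 (limma adjusted p = 0.00596). An unadjusted limma p below 0.05 was found for 2 of the 5, beside 20.7% of all loci. For 4 of the 5 every 35S::JAW array was above all wild-type arrays, beside 14.2% of all loci, and the list median was 0.15. Of 5 measured transcription factor genes 1 rose, beside 4.34% of all loci. This was BEH1 (AT3G50750), a homolog of BES1 and BZR1, by 0.41 ± 0.09 (limma adjusted p = 0.0126, and 0.0548 without 35S::JAW replicate 1). In that list 2 differences were positive and 3 negative, with a median of -0.09. Of the 5, 3 had an unadjusted limma p below 0.05, beside 20.7% of all loci. BZR1 and BES1 were not analysed here. Of 6 measured genes listed as regulators of synthesis or inactivation genes (CES, CCA1, ARF7, PIF4, PIF5 and IBH1) none passed in limma. Their differences ran from -0.10 to 0.25, and 1 of the 6 had an unadjusted p below 0.05, beside 20.7% of all loci. This was IBH1, with 0.25 ± 0.08 (limma adjusted p = 0.0748), and whether it acts on synthesis or inactivation genes was not tested.

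Genes known to be induced by brassinosteroids did not move one way in 35S::JAW. Of 9 measured 2 rose and 2 fell, beside 4.34% and 3.98% of all loci, with a list median of -0.07. An unadjusted limma p below 0.05 was found for 7 of the 9, beside 20.7% of all loci. The induced genes also respond to other signals, auxin, gibberellin or touch among them. PRE1 (AT5G39860), a growth-promoting helix-loop-helix protein, had log2 values of 8.79, 8.40 and 8.63 in 35S::GA20OX, 6.30, 5.38 and 6.12 in 35S::JAW, and 7.87, 7.75 and 7.97 in wild type. It fell 3.80-fold in 35S::JAW, by 1.93 ± 0.20 on the log2 scale (limma adjusted p = 0.000122). In 35S::GA20OX its difference was 0.74 ± 0.20 (limma adjusted p = 0.191, 0.0171 without 35S::JAW replicate 2, and 0.0266 in the fit to 6 arrays).

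IAA19 (AT3G15540), an auxin response repressor, fell by 0.60 ± 0.09 in 35S::JAW (limma adjusted p = 0.0017), and its difference in 35S::GA20OX was 0.49 ± 0.09 (limma adjusted p = 0.051). The IAA19 difference in 35S::GA20OX passed in 5 of 15 alternative settings, among them those without 35S::JAW replicate 2 or replicate 3, with limma adjusted p from 0.00923 to 0.175 over all of them. BEE3 (AT1G73830), a helix-loop-helix factor of early brassinosteroid response, had log2 values of 7.83, 7.86 and 7.86 in 35S::GA20OX, 9.22, 9.05 and 9.07 in 35S::JAW, and 7.94, 8.09 and 7.67 in wild type. It rose 2.32-fold in 35S::JAW, by 1.21 ± 0.10 (limma adjusted p = 2.28e-05). TCH4 (AT5G57560), a xyloglucan-modifying enzyme of the cell wall, rose by 1.16 ± 0.30 in 35S::JAW (limma adjusted p = 0.035), with 9.39, 7.98 and 8.37 in 35S::JAW against 7.32, 7.80 and 7.15 in wild type. Without 35S::JAW replicate 1, the highest array, the TCH4 difference was 0.75 and its limma adjusted p 0.0546. The call was also lost without 35S::GA20OX replicate 1, 35S::JAW replicate 3, wild type replicate 1 or wild type replicate 3, in the fit to 6 arrays and with a prior that follows intensity, with limma adjusted p up to 0.144.

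Between the lines, 7 of the 9 induced genes passed, 3 higher and 4 lower in 35S::JAW than in 35S::GA20OX, beside 13.2% of all loci, 6.71% higher and 6.52% lower. The log2 differences of those named here were -2.67 ± 0.20 for PRE1, -1.09 ± 0.09 for IAA19, 1.27 ± 0.10 for BEE3 and 1.27 ± 0.30 for TCH4. The TCH4 call was lost without 35S::GA20OX replicate 3 (limma adjusted p = 0.0631) and with a prior that follows intensity (0.0841). BIN2 was higher by 0.46 ± 0.08 and BEH1 by 0.40 ± 0.09, each the 1 passing gene of 5 in its list, beside 6.71% of all loci higher. Of the remaining lists, SOB7 (AT1G17060), a P450 gene related to BAS1 that also lowers brassinosteroid levels, was higher in 35S::JAW by 0.54 ± 0.12 (limma adjusted p = 0.015), the opposite direction to BAS1. The squalene synthase gene SQS1 (AT4G34640), an early step of sterol synthesis, was higher in 35S::JAW than in 35S::GA20OX by 0.27 ± 0.07 (limma adjusted p = 0.0207). Of 17 sterol synthesis genes it alone passed, beside 13.2% of all loci, 6.71% higher. An unadjusted limma p below 0.05 was found for 8 of the 17, beside 25.2% of all loci. The SOB7 call was lost without 35S::GA20OX replicate 2 or replicate 3 (limma adjusted p up to 0.0601), and the SQS1 call without either of these or without 35S::JAW replicate 1 or replicate 2 (up to 0.0777). No perception gene passed between the lines (limma; 2 of 13 at an unadjusted p below 0.05, beside 25.2% of all loci) and no regulator (2 of 6).

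**Figure D4:**
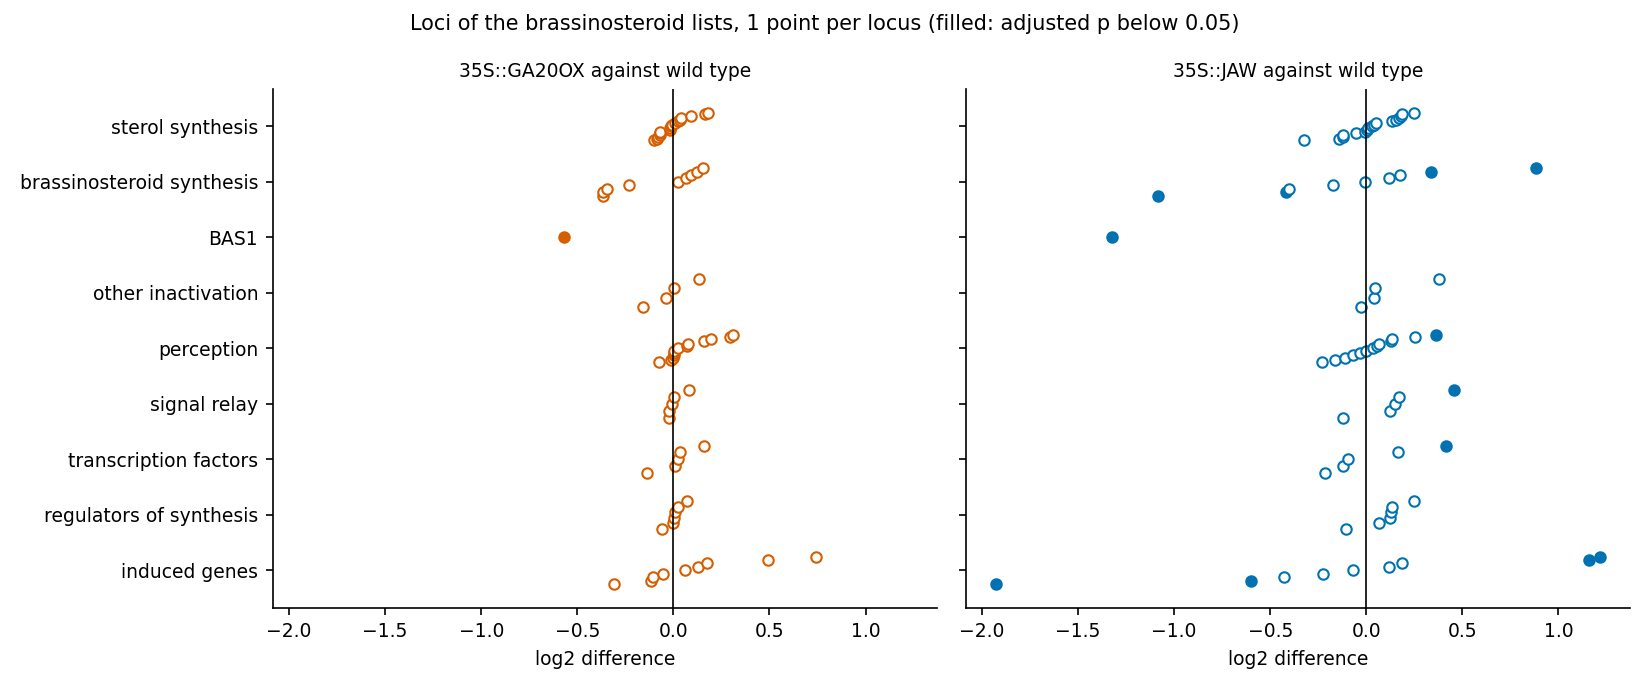
Log2 differences from wild type (x axis) of the loci of each brassinosteroid list (rows, 1 point per locus, spread vertically in order of their value) in 35S::GA20OX and in 35S::JAW. Filled points passed an adjusted p of 0.05 over all loci. In 35S::GA20OX the BAS1 point alone is filled, and in 35S::JAW filled points stand on both sides of 0 in the synthesis genes and in the induced genes.

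For the 5 genes that passed against wild type, the loci with the most similar values over the 9 arrays were listed by Pearson's r, as a description. The 9 arrays share 3 genotypes, so the points are not independent. DWF4 was most like AT4G32340 (r = 0.997), NPQ1 (AT1G08550), an enzyme of the xanthophyll cycle (r = 0.979), and the glutathione transferase gene GSTU1 (AT2G29490, r = 0.975). AT4G32340 had log2 differences from wild type of -0.25 in 35S::GA20OX and -0.79 in 35S::JAW, a pattern of the same order as that of DWF4. BAS1 was most like IQD23 (AT5G62070, r = 0.982), AT4G18520 (r = 0.97) and the acid phosphatase gene PAP10 (AT2G16430, r = 0.97). Their differences in 35S::JAW, -0.35, -0.49 and -0.18, were smaller than that of BAS1, and that of PAP10 did not pass (limma adjusted p = 0.0796). In 35S::GA20OX none of these loci passed (limma adjusted p from 0.427 to 0.83). ROT3 was most like CLT3 (AT5G12170, r = 0.987), AT2G24800 (r = 0.984) and CYP78A8 (AT1G01190, r = 0.977), and CYP78A8 rose by 1.27 in 35S::JAW. DWF1 was most like the ethylene receptor gene ERS2 (AT1G04310), the beta-galactosidase gene BGAL3 (AT4G36360) and AT5G15780, with r from 0.962 to 0.964. CYP90D1 was most like AT1G54120, ACD32.1 (AT1G06460) and AT4G13180, with r from 0.936 to 0.962. AT4G13180 passed in 35S::JAW (limma adjusted p = 0.0153), while AT1G54120 and ACD32.1 passed in neither line.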

How the data were processed

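The deposited values are on a log2 scale, and the submitters' processing notes name RMA as the tool behind them. RMA subtracts background, equalises the distributions of the arrays and combines the probes of a probe set. No version of it and no chip definition are given. Each of the 20777 loci has a value on each of the 9 arrays. No pair of arrays was identical, and no detection calls or dates come with the values, and batches were therefore not tested.

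Gene names were taken from the gene lists and otherwise from a RefSeq table of TAIR10.1, in which 20508 loci were found. No build is named, so no coordinates are given. Tests used R 4.3.3 and limma 3.58.1: lmFit estimated a mean for each genotype from the 9 arrays together, and eBayes gave two-sided p-values (6 residual and 5.04 prior degrees of freedom), which were adjusted by Benjamini-Hochberg within each comparison over the whole table. "Rose" and "fell" mean an adjusted p below 0.05. No dim locus was left out. The fit was tested on simulated data.

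The genes and lists were chosen with earlier results of these data known. Named besides the 10 genes were up to 4 passing loci of each list, the regulators, and the 3 loci most like each gene that passed against wild type. Alternatives were cyclic loess, median centring, a fit without the dimmest 40% of loci, a robust prior that follows intensity, the replicate number as a block, fits to 6 arrays and leaving out each array.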

Additional observations from a re-analysis of the deposited data

How the results depend on the processing

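The 30 differences of the 10 brassinosteroid genes were each recomputed under up to 15 settings, 444 values in all: 420 kept their direction and their side of the threshold, 6 lost a call, 9 gained one and 9 changed sign. The losses were of BAS1 in 35S::GA20OX (1) and of DWF1 (1) and CYP90D1 (4) in 35S::JAW, and the gains of BR6OX2 in 35S::JAW (6) and of DWF1 in 35S::JAW against 35S::GA20OX (3). The sign changes concerned differences near 0 that never passed. With each array left out in turn, DWF5 in 35S::GA20OX ran from -0.0055 to 0.048 and DET2 in 35S::JAW from -0.074 to 0.11 (0.012 with arrays centred on their medians). In 35S::JAW against 35S::GA20OX, DET2 ran from -0.14 to 0.044, CYP90D1 from -0.13 to 0.0099 and BR6OX2 from -0.19 to 0.018. The calls of BAS1, DWF4 and ROT3 in 35S::JAW were kept under all 15. Leaving out the dimmest 40% of loci removed CYP90D1 and BR6OX1.

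The count of brassinosteroid genes called was 0 to 1 in 35S::GA20OX with 1 array left out (0 without wild type replicate 3, in limma, with 5 at an unadjusted p below 0.05) and 3 to 6 in 35S::JAW (3 without 35S::JAW replicate 3). Over all loci the count in 35S::GA20OX, 69 in the fit reported, was 108 without the dimmest 40% of loci, 205 with a robust prior that follows intensity, and 22 to 79 with 1 array left out (22 without wild type replicate 3, and 35 to 43 without any other array of wild type or 35S::GA20OX). In 35S::JAW, 1729 loci passed, and 1074 to 1682 with 1 array left out (1074 without wild type replicate 3, 1135 without wild type replicate 1). With the replicate number as a block, 74 loci passed in 35S::GA20OX, 1811 in 35S::JAW and 2739 between the lines, and BR6OX2 passed in 35S::JAW (adjusted p = 0.0368). Of 9 pairs of arrays with the same number 4 had deviations from their genotype means that correlated above 0.1 (range -0.102 to 0.251). Pairs with different numbers ranged from -0.219 to 0.17. Of 9 arrays 3 correlated best with an array of their own number. The numbers were not treated as pairs, and these weak correlations cannot exclude that they pair the samples. With no detection calls, signal over background was not judged.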
